A study of Mus musculus with 6 samples.

Results

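The genes described here write, copy and remove methyl groups on cytosine in DNA. They comprise the methylases Dnmt1, Dnmt3a and Dnmt3b, the cofactors Dnmt3l and Uhrf1, the oxidases Tet1, Tet2 and Tet3, and the glycosylase Tdg. The 9 genes were taken by name, and each is given by 1 probe set linked to no other gene, the brightest on average where there were several. By this rule 8 of the 9 had a value, out of 19938 genes in all. Tdg had none, because each of its 4 probe sets is also linked to the pseudogene Tdg-ps2. The other genes each had 1 probe set, apart from Tet1 with 3 and Tet3 with 2.

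The data are 6 Affymetrix arrays of mouse cells, 2 for each of 3 populations along early T cell development. HSC are bone marrow cells transduced with the fusion protein Nup98-HoxB4 and expanded in culture with the cytokines IL6 and SCF. ProT are such cells, with the same fusion protein, grown with IL7 and the Notch ligand DLL4. DP are CD4 and CD8 double positive thymocytes that arose from ProT cells injected into Rag2-/- mice, which form no T or B cells of their own, and they carry the fusion protein too. The sources used here give neither strain nor age, there is no population without the fusion protein, and HSC here means an expanded culture rather than sorted stem cells. HSC and ProT came from culture and DP from mice, so stage cannot be told apart from culture in any comparison with DP. HSC and ProT were cultured with different factors, so stage cannot be told apart from culture conditions in ProT against HSC either. Nothing says that replicate arrays came from separate cultures or mice, so the p-values rest on a spread that may be only technical.

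DNA methylation in mammals sits mainly on CpG, a cytosine followed by a guanine. Dnmt3a and Dnmt3b place new methyl groups, and Dnmt1, brought to freshly copied DNA by Uhrf1, restores the pattern after each round of replication. TET proteins oxidise methylcytosine, and Tdg cuts out the most oxidised forms so that repair can insert a plain cytosine. In blood cells, loss of Dnmt3a or Tet2 is known to favour self-renewal of stem cells, and Dnmt1 is needed for progenitors and thymocytes to survive.

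The array medians ranged from 6.73 to 6.91, and the correlation between replicates was 0.991 for HSC, 0.995 for ProT and 0.997 for DP. Replicates were at least 1 log2 unit apart for 204 HSC, 144 ProT and 0 DP genes. Of the T lineage markers, 9 of 9 measured were called higher in ProT than in HSC, and of the double positive markers 7 of 7 were called higher in DP than in ProT. Those shares were 7.85% and 14.5% over all genes. Of 8 markers of the HSC culture, 1 was called higher and 3 lower in ProT than in HSC (7.85% and 6.9% of all genes). In DP against ProT, 7 of these 8 were lower and 0 higher (18.1% and 14.5% of all genes). Kit read 12.04 and 11.90 in ProT, against 11.33 and 11.17 in HSC, and Cd34 read 12.62 and 12.77, against 12.77 and 12.74. Cd4 read 12.84 to 12.87 in DP, against 5.94 to 6.06 in ProT. Signals are log2 values as deposited, and a change is a difference of population means with its standard error from limma. Calls needed an adjusted p (Benjamini-Hochberg, 19938 genes) below 0.05. The table holds no detection calls, so 1228 olfactory, vomeronasal and taste receptor genes served as a mark of dim signal. The 95th percentile of their means was 5.95.

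Dnmt3b and Tet1 moved most among the 8 measured genes, in opposite directions, and both did so between ProT and DP. Dnmt3b was 5.74-fold lower in DP than in ProT, and Tet1 was 3.23-fold higher. Dnmt1 and Uhrf1 were lower by smaller amounts in the same comparison. Between ProT and HSC, Dnmt3a and Dnmt3b were called higher. limma called 2 of the 8 genes between ProT and HSC, both higher (at an unadjusted p below 0.05, 2 higher and 2 lower), where 14.7% of all genes were called, 7.85% higher and 6.9% lower. Between DP and ProT it called 1 higher and 3 lower, against 32.6% of all genes (14.5% higher, 18.1% lower). Between DP and HSC it called 3 higher and 5 lower, against 34.9% of all genes (16% higher, 18.8% lower). The arrays of the populations did not overlap for 5 of the 8 genes in ProT against HSC (52.1% of all genes), 7 of 8 in DP against ProT (69%) and 8 of 8 in DP against HSC (67.9%). The median log2 change of the 8 genes was -0.09, -0.19 and -0.46 in these comparisons, beside -0.0075, 0.02 and 0.02 over all genes. The comparisons share arrays and are not independent of each other.

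**Figure D1:**
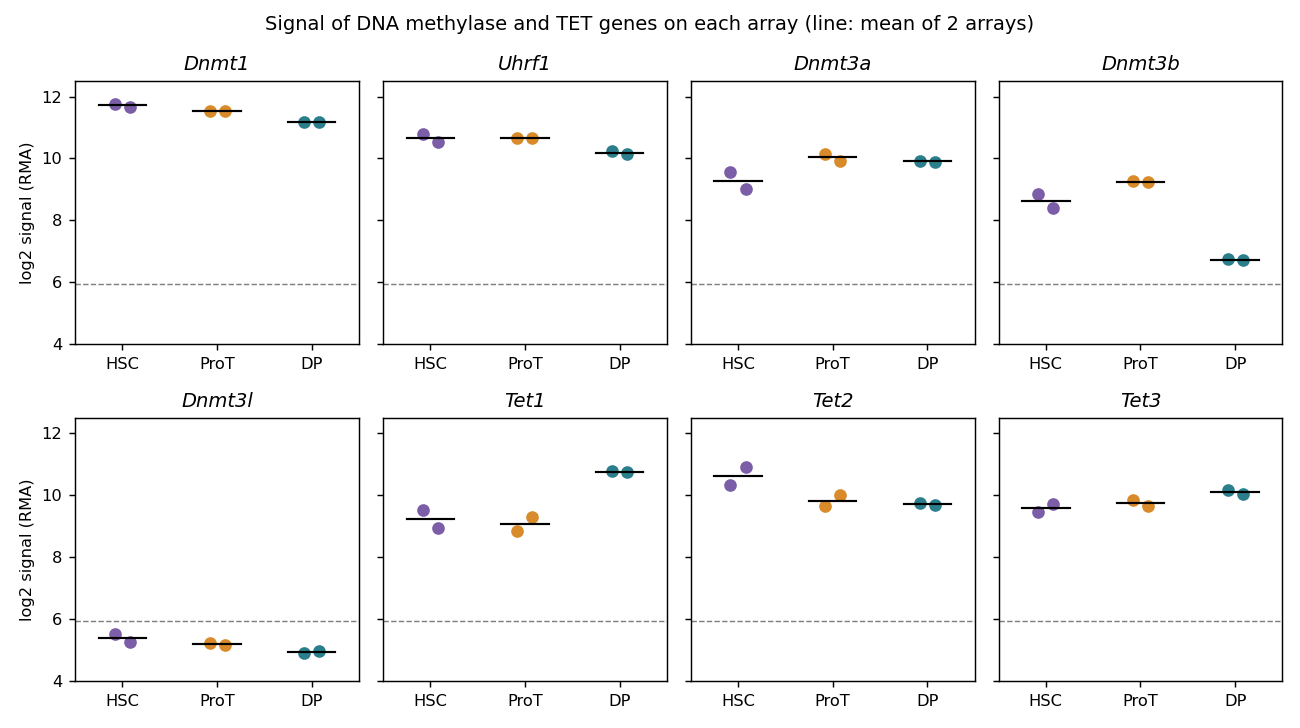
Log2 signal (vertical axis) of each gene on the 2 arrays of HSC, ProT and DP (points), with the population mean (black line). The dashed line is the 95th percentile of sensory receptor genes, 5.95. Dnmt3b is lowest and Tet1 highest on the DP arrays, and Dnmt3l lies under the dashed line on every array.

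The enzymes that copy methylation were highest in the cultured cells and lowest in DP. Dnmt1, the maintenance methylase, read 11.76 and 11.66 in HSC, 11.52 and 11.54 in ProT, and 11.17 and 11.16 in DP. The 3 populations did not overlap, and the levels stepped down in that order. The change of DP against ProT was -0.36 ± 0.07 (adjusted p = 0.0125) and that of DP against HSC was -0.55 ± 0.07 (adjusted p = 0.0022). The change of ProT against HSC, -0.18 ± 0.07, did not pass (adjusted p = 0.186, 95% interval -0.36 to -0.0012). The call against HSC held in all 16 alternatives that set no minimum on the size of the change. The call against ProT was lost with cyclic loess (adjusted p = 0.0579), without ProT replicate 1 or 2 (0.0512 and 0.0524) and without DP replicate 1 or 2 (0.0746 and 0.0785), while the change itself stayed between -0.37 and -0.25.

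Uhrf1, which recognises newly copied DNA with a methyl group on the old strand and recruits Dnmt1, read 10.78 and 10.53 in HSC, 10.65 and 10.65 in ProT, and 10.24 and 10.13 in DP. HSC and ProT overlapped (-0.0076 ± 0.10, 95% interval -0.26 to 0.25), with DP below both. DP differed by -0.46 ± 0.10 against ProT (adjusted p = 0.0184) and -0.47 ± 0.10 against HSC (adjusted p = 0.0157). Both calls were lost with quantile normalization (adjusted p = 0.0518 and 0.0555). Against ProT the call was also lost without ProT replicate 1 or 2 (adjusted p = 0.0734 and 0.0667) and without DP replicate 1 or 2 (0.0745 and 0.127). Against HSC it was lost without DP replicate 1 or 2 (0.0641 and 0.112).

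Of 10 genes that work beside Dnmt1 and Uhrf1, 2 were higher and 1 lower in DP than ProT, a share near the 32.6% of all genes called in that comparison. Without DP replicate 2 there were 1 and 0, and without ProT replicate 2 or DP replicate 1 there were 2 and 0. Cdca7, which with the remodeller Hells opens nucleosomes for maintenance methylation, read 12.76 in DP, against 12.07 in ProT (change 0.69 ± 0.10, adjusted p = 0.00363, called without each array too). The gene called lower was Ehmt2, a histone methylase (-0.44 ± 0.11, adjusted p = 0.027), and its call was lost without any 1 of the ProT or DP arrays. Hells itself did not pass between DP and ProT (-0.39 ± 0.21, adjusted p = 0.238, and -0.71 to -0.07 without 1 array). It was lower in DP than in HSC by -1.45 ± 0.21 (adjusted p = 0.00326, called without each array). Usp7, the other gene called higher in DP than ProT, read 11.71 and 11.71 in DP, against 11.19 and 11.08 in ProT. Its change was 0.52 to 0.63 without 1 array. Pcna, the replication clamp, did not pass between DP and ProT (0.36 ± 0.12), and neither did Uhrf2, the relative of Uhrf1 (0.17 ± 0.11).

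Replication genes were lower in DP together with Dnmt1 and Uhrf1. Over all genes 18.1% were lower and 14.5% higher in DP than ProT, with a median change of 0.02. Of 22 S phase genes, 13 were lower and 0 higher (at an unadjusted p below 0.05, 14 and 1), with a median change of -0.58. Among them were Mcm3, of the replicative helicase (-1.36 ± 0.10), the cell cycle factor E2f1 (-1.21 ± 0.16) and Cdt1, which licenses origins (-1.07 ± 0.14). Mki67 (0.87 ± 0.40) and Top2a (0.0014 ± 0.21), markers of cycling cells, did not pass. Mki67 read 11.97 and 11.95 in DP, against 10.42 and 11.76 in ProT, and its change was 0.20 without ProT replicate 1 and 1.54, called higher, without ProT replicate 2. Without ProT replicate 2 the count of higher S phase genes was 2, and without any other array it was 0. Without DP replicate 1 or 2 the count of lower genes was 9 in each case, against 12 to 14 without any other array. In bulk RNA, fewer cells of a kind and less RNA per cell cannot be told apart, and the part of proliferation in the changes of Dnmt1 and Uhrf1 was not tested.

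The promoters of Dnmt1 and Uhrf1 are shown because both genes were lower in DP beside E2f1 and replication genes. The windows run from 250 bases before to 50 after an annotated start (RefSeq, GRCm38.p6), 5′ to 3′ on the gene's strand. The Dnmt1 window is chr9:20952574-20952873 on the minus strand and the Uhrf1 window chr17:56303087-56303386 on the plus strand. Capitals mark the E2F core, searched as TTCCCGC or TTGGCGC on both strands. The motifs and the windows were chosen after the expression values were seen. Of the windows of both genes, only those holding the core are printed, so its presence in them was fixed in advance.
Dnmt1: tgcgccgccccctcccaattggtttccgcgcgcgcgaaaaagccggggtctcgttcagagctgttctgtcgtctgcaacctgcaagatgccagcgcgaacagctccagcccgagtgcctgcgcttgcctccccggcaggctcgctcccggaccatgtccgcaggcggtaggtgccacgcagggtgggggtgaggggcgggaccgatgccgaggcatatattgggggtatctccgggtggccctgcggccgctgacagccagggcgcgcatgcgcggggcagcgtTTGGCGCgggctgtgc
Uhrf1: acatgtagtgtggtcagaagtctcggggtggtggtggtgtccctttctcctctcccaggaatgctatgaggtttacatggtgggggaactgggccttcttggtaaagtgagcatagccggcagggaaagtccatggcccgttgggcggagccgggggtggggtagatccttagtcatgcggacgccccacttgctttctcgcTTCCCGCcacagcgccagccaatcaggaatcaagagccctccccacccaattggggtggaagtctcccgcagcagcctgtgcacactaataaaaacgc
The match begins at base 35 after the start in Dnmt1 and 48 bases before the start in Uhrf1, and neither overlaps a match to the other motifs searched. The core was found in 6.8% of all 32851 promoter windows, and in 12 of the 18 windows held for 17 of the S phase genes. Dnmt1 has 2 further windows and Uhrf1 has 1 further window without it. Each printed window also holds 3 matches to the CCAAT box (CCAAT on either strand, found in 37.4% of windows). In each window, 2 of these overlap as the 2 strands of CCAATTGG. GGGCGG on either strand, found in 35.7% of windows, occurs 2 times in Dnmt1 and 1 time in Uhrf1. CACGTG, which reads the same on both strands and was found in 7.2% of windows, is in neither. The windows of Dnmt3b, Tet1, Tet2 and Tet3, 1 each, hold no E2F core. A match describes the letters only, and a part of E2F in the changes of these genes was not tested.

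The de novo methylases parted in DP. Dnmt3a read 9.55 and 9.0 in HSC, 10.14 and 9.92 in ProT, and 9.91 and 9.90 in DP. HSC lay below both other populations, and ProT and DP, which did not overlap, were not called apart (-0.13 ± 0.18, 95% interval -0.58 to 0.33). The change of ProT against HSC was 0.76 ± 0.18 (adjusted p = 0.0476) and that of DP against HSC was 0.63 ± 0.18 (adjusted p = 0.0446). These calls sit close to the threshold, and the 2 HSC arrays were 0.55 apart. Without HSC replicate 2 the changes were 0.48 (adjusted p = 0.0608) and 0.35 (adjusted p = 0.0738). The ProT call was also lost without ProT replicate 1 or 2 (adjusted p = 0.201 and 0.0808), without either DP array (0.134) and with median centring (0.0536). The DP call was lost without either ProT array (0.0588) and without DP replicate 1 or 2 (0.18 and 0.187).

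Dnmt3b, the methylase known for early embryonic and progenitor cells, read 8.84 and 8.40 in HSC, 9.28 and 9.23 in ProT, and 6.74 and 6.72 in DP. ProT was highest, HSC lower and DP far below both, with no overlap between populations. The DP mean of 6.73 was still above the receptor mark of 5.95. The change of DP was -2.52 ± 0.14 against ProT (adjusted p = 0.000121) and -1.89 ± 0.14 against HSC (adjusted p = 0.000256, 3.70-fold lower). Both calls held in all 16 alternatives, with changes from -2.55 to -2.41 and from -2.10 to -1.67. The change of ProT against HSC was smaller, 0.63 ± 0.14 (adjusted p = 0.0377), and its call was lost without ProT replicate 1 or 2 (adjusted p = 0.153 and 0.0973) and without either DP array (0.113). Against the midpoint of HSC and DP, ProT was higher by 1.58 ± 0.13 (adjusted p = 0.000677). That contrast called 2 of the 8 genes and 21% of all genes.

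Dnmt3l, the partner of the de novo methylases that lacks catalytic activity and works mainly in germ cells, stayed dim. It read 5.52 and 5.25 in HSC, 5.22 and 5.15 in ProT, and 4.89 and 4.98 in DP, all below the receptor mark. DP differed from HSC by -0.45 ± 0.11 (adjusted p = 0.0216). It compares signals in the range of receptor genes. The call was lost without HSC replicate 1 (adjusted p = 0.0508) and without DP replicate 1 or 2 (0.129 and 0.0904).

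**Figure D2:**
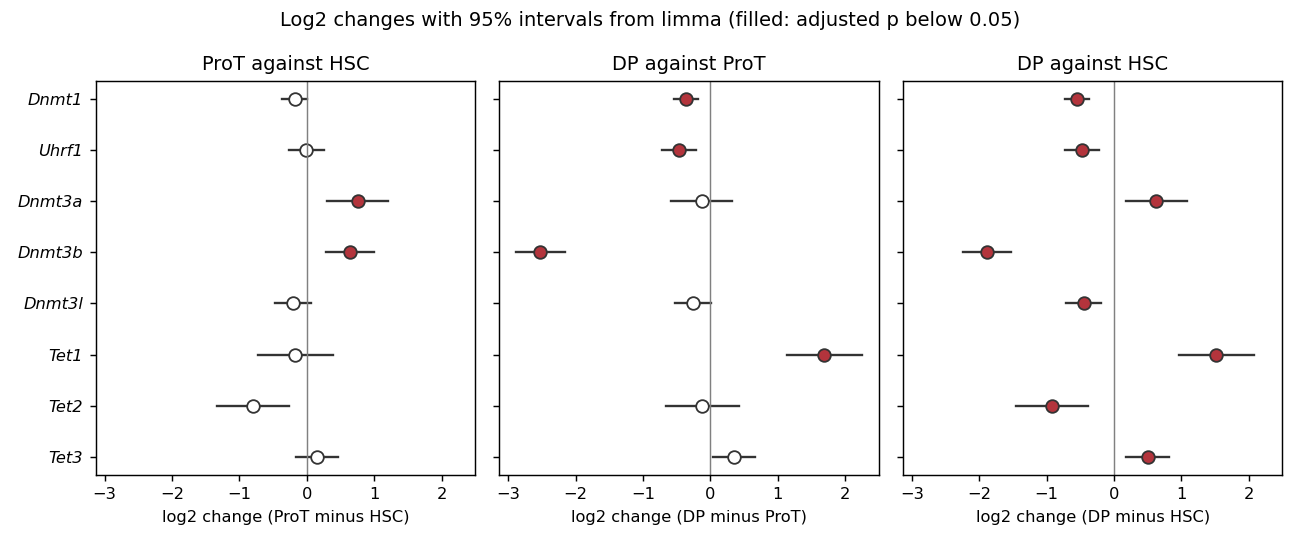
Log2 change (horizontal axis) of each gene in the 3 comparisons, with the 95% interval from limma. Filled points have an adjusted p below 0.05. Dnmt3b lies at -2.52 and Tet1 at 1.69 for DP against ProT, and the other 6 genes lie within 0.5 of 0 there.

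Tet1 and Tet3 were called higher in DP than in HSC, and Tet2 was called lower. Tet1, an oxidase known from embryonic stem cells, read 9.52 and 8.95 in HSC, 8.83 and 9.29 in ProT, and 10.76 and 10.73 in DP. HSC and ProT overlapped (-0.17 ± 0.23, 95% interval -0.73 to 0.38), and DP was above both. DP differed by 1.69 ± 0.23 against ProT (adjusted p = 0.00261) and 1.52 ± 0.23 against HSC (adjusted p = 0.00334, 2.86-fold higher). Both calls held in all 18 alternatives, with changes from 1.38 to 1.92 and from 1.23 to 1.80. The other 2 probe sets of Tet1, tested after the data were seen with all probe sets in the fit, changed by 1.38 ± 0.32 and 1.45 ± 0.27 between DP and ProT (adjusted p = 0.0231 and 0.0105). Tet1 was also below the midpoint of HSC and DP in ProT, by -0.93 ± 0.19 (adjusted p = 0.0223). That call was lost with the mean of the probe sets (adjusted p = 0.0664), without ProT replicate 1 (0.126) and without DP replicate 1 or 2 (0.0981 and 0.0964).

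Tet2, the TET gene most often mutated in blood malignancies, ran the other way. It read 10.32 and 10.92 in HSC, 9.64 and 10.01 in ProT, and 9.74 and 9.67 in DP. HSC was above both later populations, which overlapped each other (-0.12 ± 0.22, 95% interval -0.66 to 0.42). The change of DP against HSC was -0.92 ± 0.22 (adjusted p = 0.0213), and the call was lost without DP replicate 1 or 2 (adjusted p = 0.106 and 0.134). Without HSC replicate 2 that change was -0.62. The change of ProT against HSC, -0.80 ± 0.22, missed the threshold (adjusted p = 0.0677). It passed without HSC replicate 1 (-1.10, adjusted p = 0.0103), with the filter on dim genes (0.0404), with a trended and robust prior (0.0435) and with the replicate block (0.0417).

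Tet3, the TET gene that acts in the zygote, read 9.46 and 9.73 in HSC, 9.86 and 9.64 in ProT, and 10.17 and 10.02 in DP. HSC and ProT overlapped (0.15 ± 0.13), with DP above both. DP differed from HSC by 0.50 ± 0.13 (adjusted p = 0.0276), and its call was lost without HSC replicate 1 (adjusted p = 0.0887) and without DP replicate 1 or 2 (0.160 and 0.0865). The change of DP against ProT, 0.35 ± 0.13, did not pass (adjusted p = 0.0928). The second probe set of Tet3 gave 0.51 ± 0.10 there (adjusted p = 0.0114 with all probe sets in the fit). That comparison also passed with quantile normalization (0.0364), median centring (0.0424), cyclic loess (0.0358) and the mean of the probe sets (0.0306).

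The genes nearest to Dnmt3b and Tet1 were those whose values, centred on their own mean, had the smallest root mean square difference over the 6 arrays. For Dnmt3b they were P2ry14, a nucleotide sugar receptor (0.07 log2 units, r = 0.998), Ncs1, a calcium sensor (0.12, r = 0.994), and Rnh1, the ribonuclease inhibitor (0.13, r = 0.995). For Tet1 they were Kcna3, a potassium channel of lymphocytes (0.11, r = 0.991), Zfp644, a zinc finger protein (0.15, r = 0.984), and Nfat5, an osmotic stress factor (0.17, r = 0.976). P2ry14 read 10.43 and 10.09 in HSC, 10.91 and 11.04 in ProT, and 8.44 and 8.42 in DP. Kcna3 read 10.10 and 9.70 in HSC, 9.69 and 10.20 in ProT, and 11.54 and 11.45 in DP. The correlations run over 6 arrays of 3 populations that all these genes share, and describe the pattern only.

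**Figure D3:**
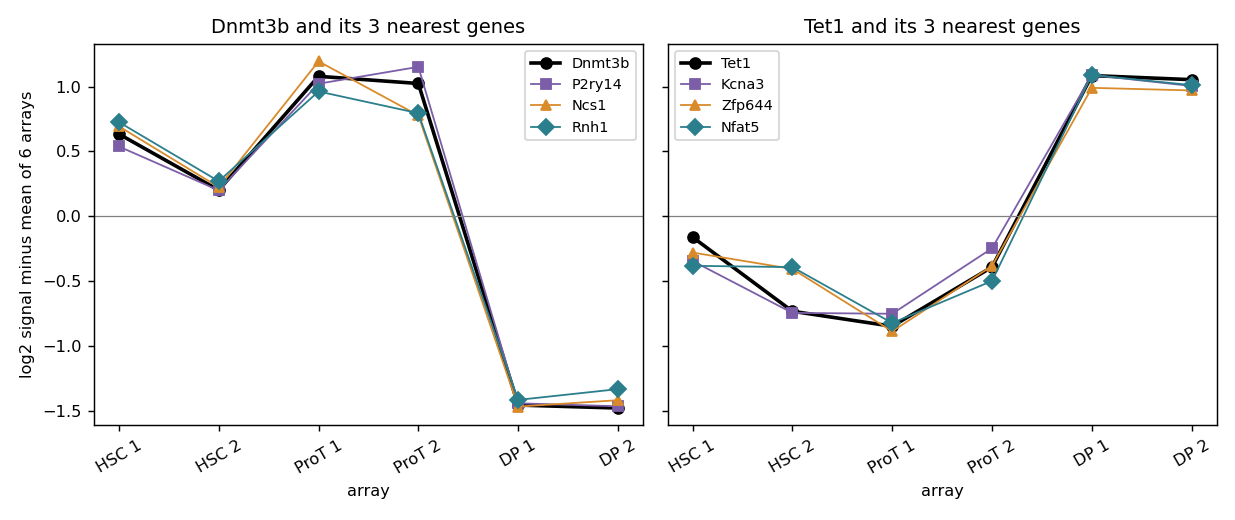
Log2 signal of each gene minus its own mean over the 6 arrays (vertical axis), by array (horizontal axis), for Dnmt3b and Tet1 (black) and the 3 genes nearest to each. Lines join the arrays of a gene and replicates have no order. Dnmt3b and its neighbours drop on both DP arrays, where Tet1 and its neighbours are highest.

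Genes that supply or assist the TET enzymes went both ways. Of 8 TET cofactors and partners measured, 2 were higher and 3 lower in DP than ProT, where 14.5% and 18.1% of all genes were. Idh1, a cytosolic enzyme that makes the TET cosubstrate alpha-ketoglutarate, was lower at each step, with 11.91 and 11.91 in HSC, 10.38 and 10.65 in ProT, and 9.53 and 9.48 in DP. Its change was -1.39 ± 0.11 for ProT against HSC (adjusted p = 0.000655) and -1.02 ± 0.11 for DP against ProT (adjusted p = 0.00104). The pair that adds and removes the sugar GlcNAc on proteins was higher in DP than ProT, with Ogt, which binds TET proteins, at 0.71 ± 0.08 (adjusted p = 0.00156) and Oga at 0.82 ± 0.08 (adjusted p = 0.000808). The calls of these 3 genes held without each array. The count of lower genes was 1 without DP replicate 2 and 2 without DP replicate 1 or without either ProT array.

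Tdg has no value of its own here. Of 15 other base excision repair genes, which include glycosylases that act on other bases, 7 were lower and 2 higher in DP than ProT, and 6 were not called, with a median change of -0.12. Over all genes 18.1% were lower and 14.5% higher. Apex1, which cuts the backbone where a base was removed, changed by -1.28 ± 0.13 (adjusted p = 0.00097), and Parp1, a sensor of strand breaks, by -0.96 ± 0.12 (adjusted p = 0.00206). Neil1, a glycosylase of oxidised bases, went the other way, at 9.94 and 9.92 in DP, against 8.57 and 8.62 in ProT (change 1.33 ± 0.10, adjusted p = 0.000293). These 3 calls held without each array. The count of lower genes was 4 without ProT replicate 1 or DP replicate 1 and 3 without DP replicate 2. Of the cytidine deaminases, Apobec1 was lower in ProT than HSC (-1.37 ± 0.17, adjusted p = 0.00381) and Apobec3 lower in DP than ProT (-0.86 ± 0.08, adjusted p = 0.000614), each also without every array in turn.

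Most, but not all, of the measured enzymes of folate and methyl donor metabolism were lower in DP than ProT. Of 13 measured, 9 were lower and 0 higher in DP than ProT (at an unadjusted p below 0.05, 9 and 1), with a median change of -0.94. Over all genes 18.1% were lower and 14.5% higher, with a median change of 0.02. The mitochondrial folate enzymes Mthfd2 (-1.94 ± 0.15), Shmt2 (-1.49 ± 0.10) and Mthfd1l (-1.48 ± 0.08) changed most, with adjusted p from 0.000108 to 0.000347. Without any 1 array the count of lower genes was 7 to 9. Mtr, the methionine synthase, did not pass here (0.12 ± 0.07) but was lower in ProT than HSC (-0.54 ± 0.07, adjusted p = 0.00446, called without each array). Tyms, which makes thymidylate, did not pass either (0.07 ± 0.14 for DP against ProT).

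Genes listed for proteins that bind CpG were counted in 2 lists, readers of methylated CpG and proteins with a CXXC domain. Over all genes 14.7% were called in ProT against HSC and 32.6% in DP against ProT (14.5% higher, 18.1% lower). Among 7 measured readers of methylated CpG, the calls in ProT against HSC were 2 higher and 1 lower, with 0 in either direction without ProT replicate 1 or without either DP array (2 and 0 without HSC replicate 2). In DP against ProT, 2 were higher and 0 lower (at an unadjusted p below 0.05, 2 and 1). In DP against HSC, 2 readers were higher and 1 lower, where 16% and 18.8% of all genes were, and the list median was -0.07. Zbtb4, a zinc finger reader, and Mbd2, a repressor that binds methylated DNA, were higher in DP than HSC by 0.86 ± 0.07 (adjusted p = 0.000394) and 0.82 ± 0.10 (adjusted p = 0.00156), also without each array. Zbtb38 went the other way, at 9.27 and 9.18 in DP, against 9.98 and 9.81 in HSC. Of 8 proteins with a CXXC domain, which binds unmethylated CpG, 4 were higher and 0 lower in DP than ProT (at an unadjusted p below 0.05, 4 and 2). Kmt2a, a histone methylase, read 11.48 and 11.47 in DP, against 10.46 and 10.39 in ProT (change 1.05 ± 0.13, adjusted p = 0.00218), and Cxxc1 changed by 0.52 ± 0.07 (adjusted p = 0.00266), both called without each array. The count of higher CXXC genes was 2 without DP replicate 1 or 2, and 2 lower genes were called without HSC replicate 1 or 2. The count of higher readers in DP against ProT was 1 without ProT replicate 1 or DP replicate 2 and 0 without DP replicate 1, and 1 reader was called lower without ProT replicate 1.

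**Figure D4:**
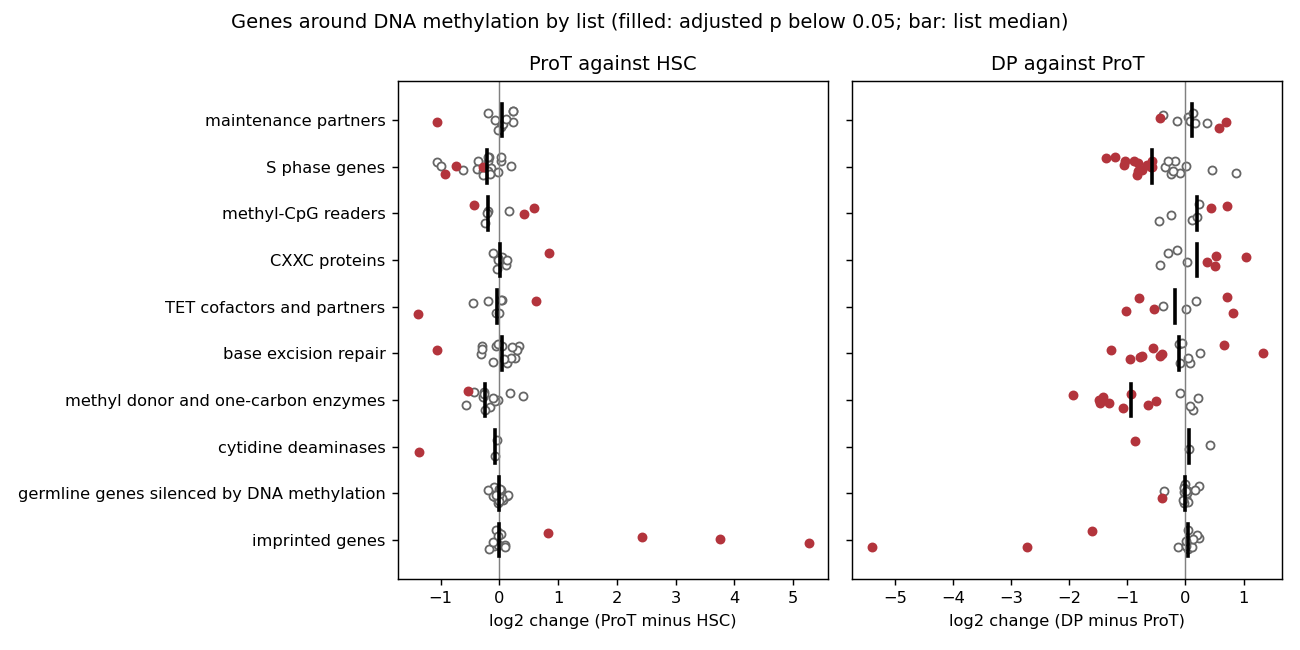
Log2 change (horizontal axis) of each gene in 10 lists around DNA methylation, for ProT against HSC (left) and DP against ProT (right). Filled points have an adjusted p below 0.05 and bars are list medians. S phase and folate genes lie mostly below 0 on the right, and Igf2 lies at 5.27 on the left and -5.40 on the right.

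Germline genes, which methylation is known to silence in body cells, were hardly called, while a few imprinted genes changed by large amounts. Over all genes 14.7% were called in ProT against HSC, 32.6% in DP against ProT and 34.9% in DP against HSC. Of 16 germline genes, 0 were called in ProT against HSC or DP against HSC, and 1 was called lower in DP against ProT (at an unadjusted p below 0.05, 0, 2 and 2). Of them 12 lay below the receptor mark on all 6 arrays. The 1 called was Rpl10l, a testis ribosomal protein gene (-0.41 ± 0.08, adjusted p = 0.0117), lost without ProT replicate 2 or DP replicate 1. Without HSC replicate 1 or 2, 2 genes were called lower there. Among 15 imprinted genes, the calls in ProT against HSC were 4 higher and 0 lower (at an unadjusted p below 0.05, also 4 and 0). The shares of all genes were 7.85% and 6.9%. Of the 15 imprinted genes, 7 lay below the receptor mark on all arrays. Igf2, a growth factor of the paternal allele, read 11.83 and 11.69 in ProT, against 6.40 and 6.58 in HSC, and 5.99 and 6.72 in DP. Dlk1, also paternal, read 10.97 and 10.55 in ProT, against 8.45 and 8.23 in HSC, and 8.01 and 8.05 in DP. Igf2r, a maternal gene in mouse that clears Igf2, was higher in ProT than HSC by 3.76 ± 0.10 and was not called apart in DP against ProT (0.04 ± 0.10). The calls of Igf2, Dlk1 and Igf2r in ProT against HSC held without each array. No methylation was measured on these arrays.

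Markers of other cells differed between the populations. Over all genes 7.85% were called higher and 6.9% lower in ProT against HSC. In DP against ProT these shares were 14.5% and 18.1%. Of 9 granulocyte and monocyte markers measured, 9 were lower in ProT than HSC, and their mean level was 6.89 to 7.73 in ProT, against 11.30 to 11.58 in HSC. Mast cell markers stood at 9.76 to 9.82 and NK markers at 10.38 to 10.51 in ProT, against 6.81 to 6.92 and 6.45 to 6.47 in HSC. In ProT against HSC, 5 of the 8 mast cell markers were called higher and 2 lower, the lower being Hdc (-3.03 ± 0.19), which makes histamine, and the transcription factor Mitf (-1.04 ± 0.15). Of the 8 NK markers 7 were higher and 0 lower. In DP the mast cell list stood at 5.62 to 5.68 and the NK list at 7.77 to 7.88, with 7 of 8 markers lower than in ProT in each list. Of 9 granulocyte and monocyte markers 4 were higher and 1 lower in DP than ProT. Of 9 thymic epithelial and stromal markers 6 were higher and 1 lower (mean level 7.46 to 7.47, against 7.0 to 7.06), of 8 macrophage markers 5 were higher and 2 lower (7.51 to 7.57, against 7.11 to 7.32) and of 7 B cell markers 5 were higher and 0 lower (7.0 to 7.04, against 6.29 to 6.30). The lower markers of the stromal and macrophage lists were Epcam of epithelium (-2.60 ± 0.09) and the macrophage genes Adgre1 (-3.98 ± 0.31) and Cd68 (-1.46 ± 0.11). Of 5 erythroid markers measured, 1 was higher and 0 lower in DP than ProT, and 0 were called in ProT against HSC. Alas2 of this list read 8.53 and 8.44 in DP, against 5.73 and 5.86 in ProT. Array signals have no true 0, and the part of other cells in the changes of the methylase and TET genes was not tested.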

How the data were processed

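Total RNA of 6 samples was hybridized to Affymetrix arrays after biotin labelling. The deposited table holds a log2 signal for 35556 probe sets, made with RMA and Partek, per the submitters' processing notes. Versions, like settings, were not given in the sources used here. RMA draws signals of dim probe sets together, which can shrink changes. A table of the platform linked 21789 probe sets to 1 gene (19938 genes), 1621 to several and 12146 to none, and only the first kind was used.

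limma 3.58.1 under R 4.3.3 fitted a mean per population over all 6 arrays, with eBayes (residual degrees of freedom 3, prior 2.83) and Benjamini-Hochberg adjustment over 19938 genes per comparison. With 2 arrays a population, the number of arrays limits precision. Self-tests on simulated data preceded the fits. All 9 genes are named. Of each list, up to 3 called genes with the largest change and up to 2 that did not pass are named per comparison, or any gene in lists of at most 10. The 3 nearest genes are named for genes whose population means differ by at least 1. The genes and lists were chosen with earlier results of these data known. Of 128 list genes around DNA methylation, 117 were measured. Alternatives were other normalizations, filters, probe sets, priors, thresholds, fits of 2 populations, a replicate block and leaving out each array. They are not independent checks. For genes with 1 probe set, the choice of probe set leaves the change as it was. Leaving out an array of the population not compared gives the same fit as the 2 compared populations alone. Python 3.11.15 with pandas 2.3.3 prepared the tables.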

Additional observations from a re-analysis of the deposited data

How the results depend on the processing

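Dnmt3b and Tet1 in DP against either other population kept their direction and their call in every alternative run. So did Dnmt1 in DP against HSC, except where a log2 change of at least 1 was also required, which its change of -0.55 does not reach. Over all alternatives, 327 of 390 member changes kept direction and side of the threshold, 48 lost the call, 10 gained it and 5 turned sign. Those 5 were small changes that were not called: Uhrf1 in ProT against HSC was 0.014 with quantile normalization and -0.13 to 0.12 without 1 array, Tet1 in ProT against HSC was -0.46 to 0.11 and Tet2 in DP against ProT -0.31 to 0.067 without 1 array. Leaving out 1 array, limma called 1792 to 3982 genes in ProT against HSC (0 to 3 of the 8), 3531 to 7408 in DP against ProT (2 to 4) and 4301 to 6934 in DP against HSC (3 to 7), and 1 to 5 of the 8 against the midpoint. Each such fit leaves a population with 1 array, which is assumed to vary like the other populations. For the midpoint, the share of all genes called was counted in the main fit only (21%). The midpoint counts of the alternatives therefore cannot be set against such a share. With only HSC and ProT fitted, 1792 genes and 0 members were called (3 members at an unadjusted p below 0.05). At an adjusted p below 0.01 the counts were 1535 genes and 0 members (4 unadjusted) in ProT against HSC, 4041 and 2 in DP against ProT, and 4780 and 3 in DP against HSC, with 1 member against the midpoint. With a log2 change of at least 1 as well, they were 1230 and 0, 2299 and 2, and 2748 and 2, with 1 against the midpoint. Median centring left 1 member in ProT against HSC, and the mean of probe sets left 1 against the midpoint. Median centring moved the median of all genes in DP against ProT to 0.13 from 0.02. It made 60.2% of the calls there higher genes in place of 44.6%, and 42% in place of 53.2% in ProT against HSC. With quantile normalization higher genes made up 54.4% of the calls in DP against ProT, and 53.8% in place of 46% in DP against HSC. With cyclic loess the share in DP against ProT was 47.2%. With the replicate block 2845, 6268 and 6757 genes and 3, 4 and 8 members were called in the 3 comparisons in the order above. Same-numbered arrays did not deviate together (correlations of 0.06, -0.04 and -0.02), so the numbers were not taken to pair samples.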
